A study of Mus musculus with 3 samples.

Results

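The genes described here are the AP-1 and Atf3 transcription factors Fos, Fosb, Fosl1, Fosl2, Jun, Junb, Jund, Atf3, Batf3 and Maff. They were followed across 3 RNA-seq libraries labelled as mouse heart fibroblasts. A gene was taken where an entry of the expression tables matched its position on the genome build GRCm38 and stood alone at its locus. This held for 9 of the 10 genes, out of 17954 entries that could be named among 31930. Fosl1 shares its locus with another gene and is given apart. All mice were on a C57/BL6 background and 12 weeks old per the labels. The uninjured library came from hearts of WT mice, whose cells were plated for 4 hours before RNA was taken. The FSP1+ library came from FSP1-GFP transgenic mice and the αSMA+ library from aSMA-GFP transgenic mice, in both cases from ventricles 10 days after myocardial infarction (MI), with cells sorted for GFP and not plated. Hearts were digested with a Liberase enzyme, given as Liberase TH in the labels and as Liberase Blendzyme in the methods. GFP in these mice is driven by the promoter of FSP1 (the gene S100a4) or of αSMA (the gene Acta2), so a sorted cell is one in which that promoter was active, whatever its type. CD45+ and CD31+ cells, which are hematopoietic and endothelial, were gated out of the FSP1+ sort, and the αSMA+ sort used GFP alone.

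AP-1 is a dimer of basic leucine zipper (bZIP) proteins. A Jun protein (Jun, Junb or Jund) pairs with another Jun or with a Fos protein (Fos, Fosb, Fosl1 or Fosl2) and binds DNA at AP-1 sites or at the related cyclic AMP response element. Atf3 and Batf3 are bZIP partners of the Jun proteins that often act as repressors, and Maff is a small Maf protein, which has a bZIP but no transactivation domain. Most of these genes are immediate early genes: MAP kinase signals induce them within minutes, without new protein synthesis, and their mRNAs are short-lived. In fibroblasts AP-1 is known for its part in the response to growth factors, cytokines and injury. Enzymatic digestion of tissue and cell sorting are known to induce the same genes.

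There was 1 library per group, so the values below describe these libraries, with no replicate error and no test between groups. Levels are in FPKM (fragments per kilobase of transcript, scaled to the number of mapped fragments), which allow for gene length and so can be set side by side between genes. Each of the 3 tables pairs 2 libraries and was scaled on its own, so the same library has 2 values for a gene, which differ by a factor of 1.15 for the uninjured and FSP1+ libraries and 1.19 for the αSMA+ library. Differences are log2 ratios of FPKM with 1 added, each from the table that pairs the 2 libraries, and folds are on the same scale. Read numbers are not in the tables, so the depth is unknown and no counting interval is given. The injury, the transgene, the sort and the plating differ together between the uninjured library and the others, and their parts cannot be told apart. Between the 2 sorts the transgenic line, with its promoter, and the gating of CD45+ and CD31+ cells differ together. Their parts cannot be told apart either. S100a4 stood at 35.3 FPKM in the FSP1+ library and 11.5 FPKM in the uninjured library, in the direction of the label. Acta2 went against its label, with 77.1 FPKM in the αSMA+ library, 95.4 FPKM in the uninjured library of the same table and 321 FPKM in the FSP1+ library, so the former is called the library labelled αSMA+ from here on. Some genes that the study names from its RNA-seq also went against the labels. It reports Col1a1, Col1a2 and Col3a1 as higher in αSMA+ fibroblasts, and Il6 and Cdh5 as higher in FSP1+ fibroblasts. Here the log2 ratios of FSP1+ over αSMA+ were 1.75, 1.56 and 1.64 for the collagens. The ratio was -3.86 for Il6, also against the study's direction, and 2.41 for Cdh5, in its direction. The sample titles and descriptions also carry run numbers that do not match. Whether libraries were exchanged cannot be told from the files, so each value below is credited to a library by its label. Marker genes of other cell types were also higher in the sorted libraries. All 8 measured macrophage and monocyte markers were at least 2-fold higher than in the uninjured library in both, with a summed level of 3733 against 82.98 FPKM in the FSP1+ table and 1397 against 71.9 FPKM in the αSMA+ table. Of 6 endothelial markers, 6 and 5 were at least 2-fold higher, with sums of 683 against 55.9 FPKM and 188 against 48.4 FPKM. Of 9 fibroblast markers, 7 were at least 2-fold lower in the FSP1+ library (sum of 4611 against 11630 FPKM) and 4 in the library labelled αSMA+ (6162 against 10068 FPKM). Ptprc, which encodes CD45, was at 13.9 FPKM in the FSP1+ library, 3.79 FPKM in the uninjured library and 10.7 FPKM in the library labelled αSMA+, and Pecam1, which encodes CD31, was at 180 against 9.96 FPKM in the FSP1+ table and 49.5 against 8.62 FPKM in the αSMA+ table. Neutrophil markers summed to 181 against 11.4 FPKM and 24.0 against 9.91 FPKM in the same tables (3 and 2 of 4 at least 2-fold higher). T and B cell markers summed to 19.4 FPKM or less and cardiomyocyte markers to 56.2 FPKM or less in every library. None of the markers in these lists was at 0 in any library. In bulk RNA, fewer cells of a type and less RNA per cell cannot be told apart.

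All 3 measured Fos family genes were highest in the FSP1+ library, and Fos itself was lowest in the library labelled αSMA+. Fos, the prototype of the family, is an entry on chromosome 12 from 85473901 to 85477270. It stood at 1168 FPKM in the FSP1+ library and 201 FPKM in the uninjured library. The table that pairs the other sort with the uninjured library gave 125 FPKM in the library labelled αSMA+ and 174 FPKM in the uninjured library. In the table of both sorts Fos had 1017 FPKM in the FSP1+ library and 106 FPKM in the library labelled αSMA+. The FSP1+ library thus held 5.78-fold more Fos than the uninjured library and 9.56-fold more than the library labelled αSMA+, while the library labelled αSMA+ was 1.39-fold below the uninjured one.

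Fosb, a close relative of Fos (chromosome 7, 19302696 to 19310045), had lower levels than Fos, larger differences from the uninjured library and a smaller difference between the sorts. Its values were 134 FPKM in the FSP1+ library and 8.74 FPKM in the uninjured library, then 28.4 FPKM in the library labelled αSMA+ and 7.58 FPKM in the uninjured library of that table. Both sorted libraries were above the uninjured one, by 13.8-fold and 3.43-fold. The direct table gave 116 FPKM in the FSP1+ library and 24.0 FPKM in the library labelled αSMA+, a 4.71-fold difference. Fosl2, also called Fra-2, encodes a Fos protein without the transactivation domain of Fos (chromosome 5, 32136472 to 32157839). It was at 41.4 FPKM in the FSP1+ library and 6.98 FPKM in the uninjured library, and at 27.8 FPKM in the library labelled αSMA+ and 6.05 FPKM in its uninjured counterpart. The 2 sorted libraries lay close for this gene, 36.1 FPKM in the FSP1+ library and 23.4 FPKM in the library labelled αSMA+, or 1.52-fold apart.

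Of the Jun family, Junb was the most abundant member in every library and Jun followed the same order as Fos. Jun (chromosome 4, 95049036 to 95052222), the namesake of the family and a strong activator, stood at 1033 FPKM in the FSP1+ library against 319 FPKM in the uninjured library, 3.23-fold higher. The library labelled αSMA+ had 152 FPKM of Jun against 276 FPKM in the uninjured library, 1.82-fold lower. Between the sorts the values were 899 FPKM in the FSP1+ library and 128 FPKM in the library labelled αSMA+, 6.98-fold apart. Jun and Fos were the only genes of the 9 for which the library labelled αSMA+ lay below the uninjured library, with the exception of Jund once values were rescaled to an equal sum per library.

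Junb (chromosome 8, 84974484 to 84978748), which is a weaker activator than Jun and can oppose it, reached 2960 FPKM in the FSP1+ library and 458 FPKM in the uninjured library. In the table with the library labelled αSMA+ it had 2398 FPKM there and 396 FPKM in the uninjured library. Both sorts were therefore about equally far above the uninjured library, 6.46-fold and 6.04-fold. Directly paired, the sorts had 2575 and 2022 FPKM, a 1.27-fold difference. Among the 15419 named protein-coding entries, ranked by the mean of the 2 FPKM values of a library, Junb was 8th in the FSP1+ library. It was 16th in the library labelled αSMA+ and 69th in the uninjured library. Jund (chromosome 8, 70697739 to 70700616), the Jun gene that is transcribed in most resting cells, differed less from the uninjured library than Jun or Junb did in both sorts. It had 579 FPKM in the FSP1+ library and 189 FPKM in the uninjured library, 3.06-fold apart, and 231 FPKM in the library labelled αSMA+ against 163 FPKM, 1.41-fold apart. In the table of both sorts it was at 504 FPKM in the FSP1+ library and 194 FPKM in the library labelled αSMA+, 2.58-fold apart, between the differences of Junb and Jun.

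The make-up of both families differed between the libraries. Fos made up 92.8% of the summed FPKM of Fos, Fosb and Fosl2 in the uninjured library, 87.0% in the FSP1+ library and 69.0% in the library labelled αSMA+, where Fosb (15.7%) and Fosl2 (15.3%) held nearly equal shares. Jun held 33.0% of the summed Jun family in the uninjured library, 22.6% in the FSP1+ library and 5.46% in the library labelled αSMA+. The share of Junb ran the other way, at 47.4%, 64.7% and 86.3%. The Fos family was 18.4% of all 6 genes together in the uninjured library, 22.7% in the FSP1+ library and 6.12% in the library labelled αSMA+. The ratio of Fos to Junb was 0.440 in the uninjured library and 0.395 in the FSP1+ library but 0.0522 in the library labelled αSMA+. The ratio of Fos to Jun varied less, at 0.631, 1.13 and 0.824. These shares are within a library, so the scaling of the tables does not enter them.

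**Figure D1:**
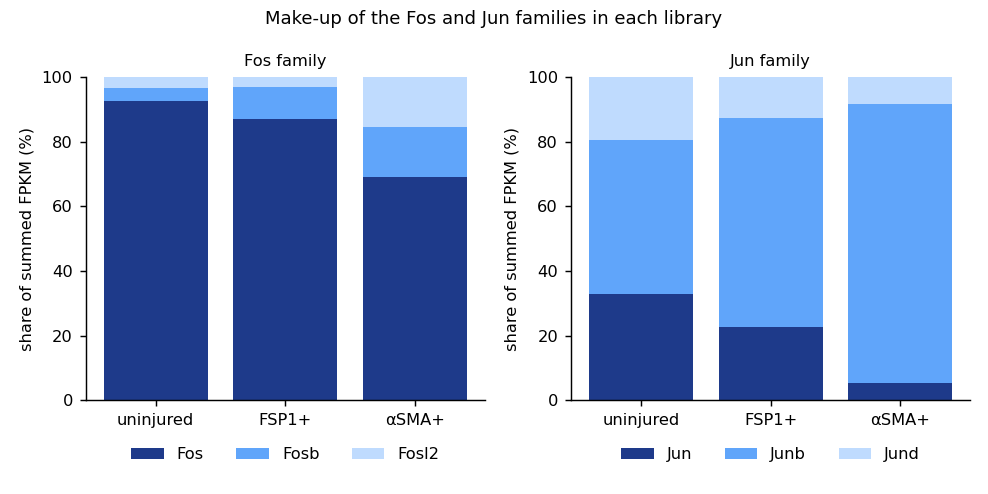
Share of each gene in the summed FPKM of its family, in percent, for the Fos family (Fos, Fosb, Fosl2; left) and the Jun family (Jun, Junb, Jund; right), 1 bar per library and no replicates. Junb holds 47.4% of the Jun family in the uninjured library and 86.3% in the library labelled αSMA+, and Fos holds 92.8% and 69.0% of the Fos family in the same libraries.

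Atf3, a stress-induced factor that forms repressing homodimers and pairs with Jun proteins, had the largest difference of the 9 genes from the uninjured library in the FSP1+ library. Its entry (chromosome 1, 191170297 to 191218039) was at 546 FPKM in the FSP1+ library and 10.0 FPKM in the uninjured library, 49.6-fold apart. In the library labelled αSMA+ it was at 132 FPKM against 8.67 FPKM in the uninjured library, 13.7-fold apart, and the direct table gave 475 FPKM in the FSP1+ library and 111 FPKM in the library labelled αSMA+. Atf3 was therefore far above the uninjured level in both sorts, and 4.25-fold higher in the FSP1+ library than in the other sort. Its ratio to Jun was 0.0314 in the uninjured library, 0.528 in the FSP1+ library and 0.867 in the library labelled αSMA+.

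Maff had the opposite order between the sorts. Maff (chromosome 15, 79347678 to 79359076) dimerises with itself or with Nrf and Bach proteins at antioxidant response elements. It stood at 21.9 FPKM in the FSP1+ library and 4.56 FPKM in the uninjured library, and at 115 FPKM in the library labelled αSMA+ and 3.94 FPKM in the uninjured library. Both sorts were higher, by 4.12-fold and 23.5-fold. With 19.0 FPKM in the FSP1+ library and 97.3 FPKM in the library labelled αSMA+, it was 4.90-fold lower in the FSP1+ library and the only one of the 9 genes at least 2-fold lower there. Batf3, a partner of Jun proteins known for its role in dendritic cell development (chromosome 1, 191097880 to 191108943), was near the low end of the measurement. It had 3.51 FPKM in the FSP1+ library and 0.761 FPKM in the uninjured library, and 1.89 FPKM in the library labelled αSMA+ against 0.659 FPKM. Its order was that of Atf3, with ratios of 2.56-fold and 1.74-fold that depend on the 1 FPKM added to each value. Across genes with 1 annotated transcript, percentile 2 of the values above 0 was 0.116 FPKM times kilobase in the uninjured library. Batf3 thus likely rested on few reads there.

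Fosl1, also called Fra-1, the Fos relative that is induced later than Fos, could not be read on its own. At chromosome 19 from 5447698 to 5457563 the tables hold 2 entries with the same span, which also covers Ccdc85b. Position therefore does not say which entry belongs to which gene. One entry was at 18.6 FPKM in the FSP1+ library, 3.73 FPKM in the uninjured library and 109 FPKM in the library labelled αSMA+, against 3.23 FPKM in the uninjured library of that table. The other was at 1.19 FPKM in the FSP1+ library, 0.212 FPKM in the uninjured library and 88.1 FPKM in the library labelled αSMA+, against 0.183 FPKM. Both entries were highest in the library labelled αSMA+, as Maff was, and neither enters the counts below.

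By level, 6 of the 9 genes ran from the FSP1+ library through the library labelled αSMA+ to the uninjured library (Fosb, Fosl2, Junb, Jund, Atf3 and Batf3). For 2 genes, Fos and Jun, the uninjured library came second and the library labelled αSMA+ last. Maff alone ran from the library labelled αSMA+ through the FSP1+ library to the uninjured library. Without replicates no spread is available to say which neighbours in these orders differ; the closest were the sorts for Junb and Fos between the uninjured library and the library labelled αSMA+.

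The FSP1+ library was set against the uninjured library to ask how the FSP1+ sort of the infarct differs from cells of a heart without injury. The FSP1+ library exceeded the uninjured library by 2-fold or more for all 9 genes, with a median log2 ratio of 2.41 and a range from 1.36 for Batf3 to 5.63 for Atf3. Of the 11973 named entries with at least 1 FPKM in either library, 14.5% were at least 2-fold higher and 15.1% at least 2-fold lower, and their median was 0.04. At 4-fold, 6 of the 9 genes were higher (Fos, Fosb, Fosl2, Junb, Atf3 and Maff) and 0 lower, against 5.09% and 1.49% of these entries. Fos had a log2 ratio of 2.53, at percentile 96.8 of all these entries. Fosb had 3.79 (percentile 98.9) and Junb 2.69 (percentile 97.2), while Atf3 was at percentile 99.7. The genes with the smallest ratios were still above percentile 90, at 93.5 for Jun, 93.0 for Jund and 90.7 for Batf3. Among all called entries 48.9% were higher, which became 34.0% when FPKM were rescaled to an equal sum per library (TPM) and 66.7% when the ratio was taken through the library labelled αSMA+; all 9 genes stayed at least 2-fold higher under both. Macrophage markers (8 of 8) and endothelial markers (6 of 6) were higher in the same library, as given above, although the sort gated out CD45+ and CD31+ cells, and their part in these ratios was not tested.

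The comparison of the library labelled αSMA+ with the uninjured library asked the same of the second sort. Here 5 of the 9 genes were at least 2-fold higher and none at least 2-fold lower, with a median log2 ratio of 1.78. Of 11689 named entries, 17.5% were at least 2-fold higher and 6.5% at least 2-fold lower, and the median was 0.07. At 4-fold, 4 of the 9 were higher (Fosl2, Junb, Atf3 and Maff) and 0 lower, against 5.6% and 0.915% of entries. The 5 were Maff (4.56, percentile 99.3), Atf3 (3.78, percentile 98.9), Junb (2.59, percentile 97.1), Fosl2 (2.03, percentile 94.6) and Fosb (1.78, percentile 92.8). Batf3 (0.80) and Jund (0.49) lay less than 2-fold above the uninjured library. Fos (-0.48, percentile 20.2) and Jun (-0.86, percentile 8.87) lay below it. Rescaling to TPM moved the median of all entries by -0.53 and the higher share of all calls from 72.9% to 31.8%, and taking the ratio through the FSP1+ library moved that share to 58.5%. Under TPM the log2 ratio of Jun became -1.49 and that of Fos -1.10, so that 2 of the 9 genes counted as lower, against 20.0% of all entries under the same scaling, and Jund changed its sign to -0.13. Relative to the median of all entries the values changed little with TPM, from -0.93 to -1.03 for Jun, from -0.55 to -0.64 for Fos and from 0.42 to 0.33 for Jund. Macrophage markers were higher in this library too (8 of 8, sum of 1397 against 71.9 FPKM), and their part was not tested.

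Setting the FSP1+ library against the library labelled αSMA+ compared both sorts of the injured heart directly. The FSP1+ library was at least 2-fold higher for 5 of the 9 genes and at least 2-fold lower for 1, with a median log2 ratio of 1.37. Of 11105 named entries, 19.2% were at least 2-fold higher and 14.3% at least 2-fold lower, with a median of 0.03. At 4-fold, 4 of the 9 were higher (Fos, Jun, Fosb and Atf3) and 1 lower, against 3.61% and 2.22% of entries. The 5 were Fos (3.26, percentile 99.5), Jun (2.80, percentile 99.1), Fosb (2.23, percentile 97.5), Atf3 (2.09, percentile 96.9) and Jund (1.37, percentile 89.0), and the 1 lower was Maff (-2.29, percentile 1.58). Fosl2 (0.60), Batf3 (0.64) and Junb (0.35) were less than 2-fold apart. The higher share of all calls was 57.2% here and 41.9% with the ratio taken through the uninjured library, which left the calls of the 9 genes as they were. The macrophage sum was 3251 FPKM in the FSP1+ library and 1179 FPKM in the library labelled αSMA+ (6 of 8 markers at least 2-fold higher). In the same order the endothelial sum was 595 and 158 FPKM (5 of 6) and the smooth muscle and pericyte sum 653 and 188 FPKM (6 of 7). The neutrophil sum was 158 and 20.2 FPKM (3 of 4). Of 9 fibroblast markers, 4 were at least 2-fold higher and 3 at least 2-fold lower in the FSP1+ library (sum of 4014 against 5197.5 FPKM). The part of these cell types was not tested. The 3 comparisons share libraries and are not independent of each other.

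**Figure D2:**
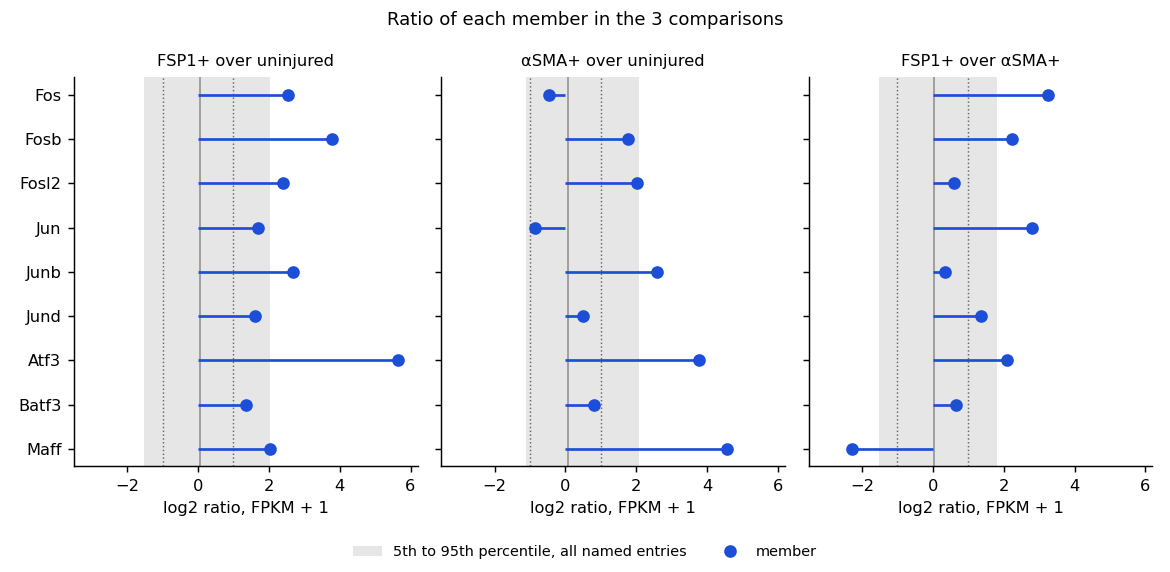
Log2 ratio of FPKM with 1 added for the 9 matched genes in the 3 comparisons; the gray band spans the 5th to 95th percentile of all named entries with at least 1 FPKM in either library, the gray line is their median and dotted lines mark 2-fold. All 9 points lie right of the 2-fold line for FSP1+ over uninjured, Fos (-0.48) and Jun (-0.86) lie left of 0 for αSMA+ over uninjured, and Maff (-2.29) alone lies left of 0 for FSP1+ over αSMA+.

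The bases just upstream of an annotated start of transcription are shown for the 6 genes in which a motif was matched. All 9 measured genes, those without a match included, were at least 2-fold higher in the FSP1+ library than in the uninjured library. RefSeq promoter windows of GRCm38.p6 were at hand for 9 of the 10 genes, with 3 starts for Maff. The start used for Atf3 lies inside its measured entry, which reaches further upstream to 191218039, and that end was not searched. The start printed for Maff lies upstream of its measured entry, which begins at 79347678. The 250 bases upstream of each start were searched on both strands. The cyclic AMP response element (CRE) was spelled TGACGTCA. Its half-site TGACG lies within it. The AP-1 site was spelled TGAGTCA. The AP-1-like site, which is known from the Jun promoter, was spelled TGACATCA. The CArG box of serum response factor was searched as well, and the TATA box, spelled TATAAA, was searched on the strand of the gene only. Capitals mark the matches, in the half-site of Atf3 on the opposite strand.
Fos, chr12:85473690-85473889, + strand: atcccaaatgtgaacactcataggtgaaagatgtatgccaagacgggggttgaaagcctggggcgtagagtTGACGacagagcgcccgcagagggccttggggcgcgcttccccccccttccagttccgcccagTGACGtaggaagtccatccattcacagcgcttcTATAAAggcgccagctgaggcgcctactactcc
Fosb, chr7:19310046-19310175, - strand: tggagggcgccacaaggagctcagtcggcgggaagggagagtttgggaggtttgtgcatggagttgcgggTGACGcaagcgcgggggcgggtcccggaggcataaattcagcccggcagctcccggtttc
Jun, chr4:95052223-95052372, - strand: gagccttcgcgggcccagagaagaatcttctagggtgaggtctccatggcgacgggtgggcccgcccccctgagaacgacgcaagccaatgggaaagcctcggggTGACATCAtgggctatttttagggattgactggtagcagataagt
Junb, chr8:84978749-84978898, - strand: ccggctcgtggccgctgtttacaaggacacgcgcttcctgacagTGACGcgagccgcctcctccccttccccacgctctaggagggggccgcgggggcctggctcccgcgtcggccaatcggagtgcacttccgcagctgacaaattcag
Atf3, chr1:191183334-191183483, - strand: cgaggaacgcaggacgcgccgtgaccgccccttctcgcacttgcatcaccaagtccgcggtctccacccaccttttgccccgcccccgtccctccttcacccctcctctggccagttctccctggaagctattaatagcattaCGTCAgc
Maff, second start, chr15:79347370-79347519, + strand: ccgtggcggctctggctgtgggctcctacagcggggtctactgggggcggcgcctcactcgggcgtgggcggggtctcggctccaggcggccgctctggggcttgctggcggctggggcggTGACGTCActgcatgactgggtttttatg

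The half-site TGACG was the most frequent match, in 5 of the 9 genes with a window: Fos (at 2 places, from 129 and from 66 bases upstream), Fosb (from 60 bases upstream), Junb (from 106), Atf3 (from 7) and Maff. It was present in 17.8% of all 32851 windows, and it was added to the search after the windows had been seen. That share is per window and the count of 5 is per gene, where the 9 genes have 11 windows, 3 of them of Maff. The whole CRE was matched in Maff, from 29 to 22 bases upstream of the second start, and in 1.55% of all windows. TGACATCA stood at 45 to 38 bases upstream in both Jun and the third start of Maff, against 2.93% of windows. The TATA box letters were matched in Fos, from 33 bases upstream, against 7.59% of windows. No window of the 9 genes held TGAGTCA (4.46% of windows) or the CArG box (1.47%), which says only that these letters are not in the 250 bases searched. Genes with and without a half-site were found on both sides of the order given above: Fos and Atf3 hold one, Jun, Jund, Fosl2 and Batf3 do not.

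**Figure D3:**
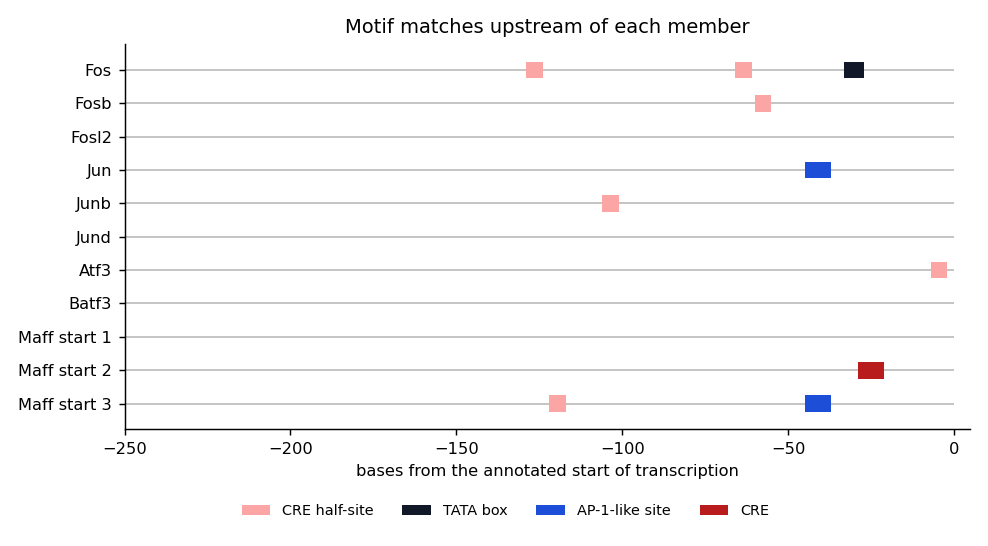
Place of each motif match in the 250 bases upstream of the annotated start (position 0) for the 9 genes with a RefSeq window, with 3 starts for Maff; each colored box is a match drawn to scale. Half-sites are matched in Fos, Fosb, Junb, Atf3 and Maff, and the AP-1-like site has the same place in Jun and in the third start of Maff.

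Gene structure and AU-rich elements were compared next. Jun, Junb and Jund are genes of 1 exon, which is the case for 7.18% of the 21877 genes with a coding transcript in GENCODE M21. The pentamer ATTTA is the core of the AU-rich elements that shorten the life of mRNAs. Its density in the 3' UTR was above the median in 8 of the 10 genes, Fosl1 included. That median (1.48 per kb) is over the 16950 genes with a 3' UTR of at least 200 bases. The density was 4.91 per kb in Fos, 4.12 in Junb, 3.28 in Maff and 3.24 in Jun. Fosb (0.466 per kb) and Batf3 (0 per kb) were below the median. The longer element TTATTTATT was present in Fos, Fosl2 and Maff and in 8.23% of those 16950 genes. Jun and Fos, which were lowest in the library labelled αSMA+, and Junb and Maff, which were not, all had dense pentamers. The Junb entry reaches into Prdx2 on the opposite strand, Jund overlaps Gm11175 and Jun overlaps Junos, and whether strand was used in counting is not stated, so reads of these partners cannot be told apart.

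Other bZIP factors, some of which pair with the genes above, were in part higher in the sorts. At 2-fold, 10 of the 18 measured were higher in the FSP1+ library and 0 lower (median log2 ratio of 1.21). In the library labelled αSMA+, 13 of 17 were higher and 0 lower (median of 1.74). Beside this list and those that follow, 14.5% of all named entries were higher and 15.1% lower in FSP1+ over uninjured. The shares were 17.5% and 6.5% in αSMA+ over uninjured, and 19.2% and 14.3% in FSP1+ over αSMA+. Levels of these related genes are given for the FSP1+ and uninjured libraries from their common table and for the library labelled αSMA+ from its table with the uninjured library, which are scaled apart. The most abundant were Xbp1 of the unfolded protein response, Atf4 of the integrated stress response, Nfe2l2 (the oxidative stress factor Nrf2) and Mafk, a small Maf like Maff. Nfe2l2 was at 83.4 FPKM in the FSP1+ library, 29.4 FPKM in the uninjured library and 216 FPKM in the library labelled αSMA+. Mafk had the same order, at 67.0, 19.4 and 150 FPKM, with a log2 ratio of -1.10 of FSP1+ over αSMA+. This is the order of Maff. Batf, a partner of Jun proteins in immune cells, was at 10.4 FPKM in the FSP1+ library and 0.690 FPKM in the uninjured library, and at 9.12 FPKM in the library labelled αSMA+. Cebpa, Nfil3 and Bach1 were also at least 2-fold higher in both sorts.

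Genes upstream of AP-1 had smaller median ratios. Only 14 of the 24 listed MAP kinases and transcription factors could be measured. Of these, 5 were at least 2-fold higher in the FSP1+ library and 4 in the library labelled αSMA+, against 14.5% and 17.5% of all named entries. None was at least 2-fold lower, and the medians were 0.65 and 0.71. Mapk3, the kinase Erk1, was at 128 FPKM in the FSP1+ library, 40.1 FPKM in the uninjured library and 38.1 FPKM in the library labelled αSMA+. It was thus high in the FSP1+ library alone. Map2k3, which activates the kinase p38, was at 80.1, 20.7 and 245 FPKM in the FSP1+, uninjured and αSMA+ libraries, an order like that of Maff. Map3k8 and Mef2d were at least 2-fold higher in both sorts, and Mapk14 (log2 ratios of 0.57 and 0.01) was not.

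Many negative regulators of the pathway were higher in the sorts. Of 17 measured genes of MAP kinase feedback and mRNA decay, 10 were at least 2-fold higher in the FSP1+ library and 0 lower (median of 1.37), and 13 were higher and 1 lower in the library labelled αSMA+ (median of 2.33). Dusp1, a phosphatase that switches MAP kinases off, was at 1204 FPKM in the FSP1+ library, 159 FPKM in the uninjured library and 404 FPKM in the library labelled αSMA+. Zfp36, which binds AU-rich elements and speeds the decay of Fos and other mRNAs, was at 865, 63.1 and 559 FPKM. Both were highest in the FSP1+ library, as most of the AP-1 genes were. Ier3 and Nfkbia, early targets of NF-κB, had the other order between the sorts, with log2 ratios of FSP1+ over αSMA+ of -1.32 and -0.71. Dusp2, Dusp5, Dusp6, Spry4 and Tnfaip3 were at least 2-fold higher in both sorts.

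The 21 measured immediate early genes outside the AP-1 families were largely higher in both sorts, 18 of 21 in the FSP1+ library (median log2 ratio of 2.25) and 18 of 20 in the library labelled αSMA+ (median of 2.49), with none at least 2-fold lower. Between the sorts 5 were higher and 2 lower in the FSP1+ library, with a median of 0.19. Egr1, which the same signals induce as Fos, was at 507 FPKM in the FSP1+ library, 164 FPKM in the uninjured library and 685 FPKM in the library labelled αSMA+. Egr1 therefore did not share the low level of Fos in the last library, and neither did Ier2 (log2 ratios over uninjured of 1.99 and 2.02) or Nr4a1 (3.26 and 3.08). Klf2, a transcription factor of endothelial and immune cells that is named here after its values were seen, did share the order of Fos and Jun, at 510 FPKM in the FSP1+ library, 106 FPKM in the uninjured library and 48.1 FPKM in the library labelled αSMA+ (log2 ratios over uninjured of 2.25 and -0.93). Myc, a driver of growth, was at 83.8, 8.65 and 548 FPKM, highest in the library labelled αSMA+. Socs3, an inhibitor of cytokine signalling, was at 715, 36.0 and 235 FPKM and Gadd45g, a stress gene, at 685, 65.1 and 252 FPKM, both in the order of Atf3. Klf6, Btg2, Gadd45b and Sgk1 were at least 2-fold higher in both sorts.

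Of 23 measured genes that AP-1 is known to regulate, 14 were at least 2-fold higher and 1 lower in the FSP1+ library (median of 1.49), and 19 were higher and 0 lower in the library labelled αSMA+ (median of 3.45). Between the sorts 1 of 22 was at least 2-fold higher and 16 at least 2-fold lower in the FSP1+ library, with a median of -2.21. Of all named entries, 19.2% were higher and 14.3% lower. The 1 higher gene was Spp1 (log2 ratio of 4.06), named here after its values were seen. The order of most targets ran against that of most AP-1 genes themselves. It was the order of Maff and of the 2 entries at the shared Fosl1 locus. The chemokines Cxcl1 and Ccl2 were at 344 and 379 FPKM in the FSP1+ library, 28.5 and 22.3 FPKM in the uninjured library and 6165 and 5924 FPKM in the library labelled αSMA+. Il6, a cytokine, was at 108, 6.63 and 1632 FPKM, and Ptgs2, the prostaglandin synthase Cox-2, at 18.1, 4.32 and 881 FPKM. Hmox1, heme oxygenase, was at 176, 18.1 and 5125 FPKM. Plaur, Vegfa, Tgfb1 and Hbegf were at least 2-fold higher in both sorts, with Tgfb1 differing least between them (log2 ratio of -0.09). Dcn, a proteoglycan of the matrix that is also among the fibroblast markers, was the 1 lower gene in the FSP1+ library, at 978 against 2318 FPKM, and stood at 3728 FPKM in the library labelled αSMA+. Most of these genes also have regulators other than AP-1.

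Heat shock genes, which digestion of tissue is known to induce together with AP-1, were for the most part higher in both sorts beside the results above. At 2-fold, 10 of the 12 measured were higher in the FSP1+ library (median of 2.18) and 11 in the library labelled αSMA+ (median of 2.21), with summed levels of 6702 against 1651 FPKM and 6319 against 1430 FPKM and none at 0. Hspb1 was at 1152 FPKM in the FSP1+ library, 162 FPKM in the uninjured library and 1154 FPKM in the library labelled αSMA+, and Hspa8 at 1282, 286 and 945 FPKM. Hspa1b, which is nearly identical to Hspa1a so that reads may be split between them, was at 1911, 298 and 712 FPKM. Hspa5, of the endoplasmic reticulum, was at 499, 392 and 1124 FPKM, and Hsp90aa1, Hsp90ab1, Hspe1, Hspd1, Hsph1 and Bag3 were at least 2-fold higher in both sorts. The sources give 1 digestion protocol for all hearts, but the uninjured cells were then plated for 4 hours, and the part of this handling in the levels of AP-1 was not tested.

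**Figure D4:**
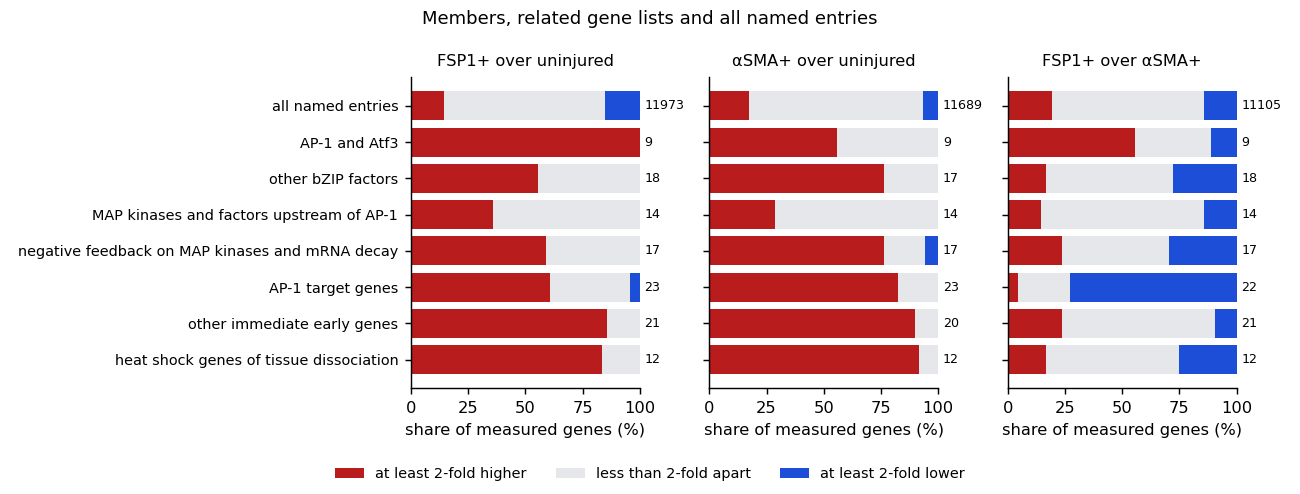
Share of measured genes, in percent, that were at least 2-fold higher (red), less than 2-fold apart (gray) or at least 2-fold lower (blue) in each comparison, for all named entries, the AP-1 and Atf3 genes and 6 related lists, with the number measured at the right of each bar. All 9 AP-1 and Atf3 genes are higher in FSP1+ over uninjured, against 14.5% of all entries, and 16 of 22 AP-1 target genes are lower in FSP1+ over αSMA+.

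The genes nearest to the AP-1 and Atf3 group in their 3 log2 ratios were sought by Euclidean distance among 5377 protein-coding genes with at least 10 FPKM in one or more libraries. Among the 5 nearest to the median profile of the 9 genes were Cd48, a surface protein of blood cells (distance of 0.33 log2 units), Inpp5d, a lipid phosphatase of blood cells (0.37), Tmem37 (0.37) and Mcl1, a survival factor (0.38). Nearest to Junb were Lpxn (0.09), Plk2 (0.17) and Ccrl2 (0.18). Among the 3 nearest to Jun were Sept4 (0.18) and Fgd2 (0.20). Sept4 had log2 ratios of 1.57, -0.85 and 2.66 where Jun had 1.69, -0.86 and 2.80. The likeness is over 3 ratios of 3 libraries and is a description only.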

How the data were processed

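Libraries were made with a stranded mRNA kit, 1 per group and 3 in all. The labels give single reads and the methods paired ends. Alignment to GRCm38 (Tuxedo Suite) and quantification per gene (Cuffdiff) were done by the authors (versions not given in the sources used here). The deposited values are FPKM in 3 tables of 31930 entries, each scaled by Cuffdiff over its 2 libraries, with an offset of 0.001 that was removed here. The tables also hold the authors' fold changes, test statistics, p-values and q-values, which were not used. The study applied Baggerly's test, which needs read numbers and was not run. Ratios depend on how each table was scaled, and those of low genes also on the pseudocount.

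Entries carry UCSC identifiers, so symbols were assigned by position from RefSeq (GRCm38.p6) and GENCODE M21: an entry alone at its locus, with an overlap of at least 0.8 of the union and the next gene below 0.7. In this way 17954 entries received a name (15419 are protein coding), and 8265 at shared loci did not. Small RNA genes lie in 647 named entries, none of them an AP-1 or Atf3 gene. Libraries were compared by log2 ratios of FPKM plus a pseudocount of 1, among entries with at least 1 FPKM in either library, called at 2-fold. With 1 library per group no test, SD or p was computed. The step was run on simulated ratios without noise, which checks its arithmetic only. Scripts used matplotlib 3.10.9, NumPy 2.4.6 and pandas 2.3.3 under Python 3.11.15.

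The genes and lists were chosen with earlier results of these data known. Named were all 10 AP-1 and Atf3 genes, and of each list the 4 with the highest mean FPKM and up to 6 more that were at least 2-fold apart in the same direction in both comparisons with the uninjured library. Also named were the 5 genes nearest to the median profile, the 3 nearest to Junb and to Jun, and the reporter genes S100a4 and Acta2. A few genes that this rule names are not reported here. Cell type marker lists are given as counts and summed levels. Alternatives were other pseudocounts, minimums, scalings and folds, entries without small RNA genes, and the Fosl1 locus as a further gene.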

Additional observations from a re-analysis of the deposited data

Results flagged for a closer look

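The log2 ratios over the uninjured library had opposite directions in the 2 sorts for Fos and for Jun. For Fos the ratio was 2.53 in the FSP1+ library and -0.48 in the library labelled αSMA+, a difference of 3.01. For Jun it was 1.69 and -0.86, a difference of 2.55. With 1 library per group these differences were not tested, and both ratios use the same uninjured library.

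The shared Fosl1 locus lies outside the counts of the report but gave a signal above the uninjured library. Its 2 entries had log2 ratios of 4.69 and 6.23 in the library labelled αSMA+ over the uninjured library. Position does not assign these entries to Fosl1 or to Ccdc85b.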

How the results depend on the processing

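Across the alternatives that give a ratio, 237 of 238 ratios of single genes kept the sign reported. Minimums and the small RNA filter leave a ratio as it is, and a pseudocount cannot turn its sign. Only the other scalings could have changed a sign, so this count says little by itself. The count of higher genes stayed within 1.5 times the reported one in every comparison. For FSP1+ over uninjured it was 9 as reported, 8 with a pseudocount of 5 and 6 at 4-fold. For αSMA+ over uninjured it was 5 as reported, 6 with a pseudocount of 0.1 and 4 at 4-fold. For FSP1+ over αSMA+ it was 5 as reported and 4 at 4-fold. For αSMA+ over uninjured the count of lower genes was 0 as reported, 2 with TPM (Fos and Jun, where 20.0% of all entries were lower) and 1 with the ratio taken through the FSP1+ library (Jun, where 9.8% of all entries were lower). In FSP1+ over αSMA+ it was 1 as reported and 2 with the Fosl1 locus counted as a further gene, an alternative chosen after seeing the data. The ratio of Jund in the library labelled αSMA+ over uninjured was 0.49 as reported and -0.13 with TPM. TPM shifted the median of all entries by -0.26 in FSP1+ over uninjured and by -0.53 in αSMA+ over uninjured. Ratios that moved by over 1.5 times were Batf3 with pseudocounts of 0.1 (2.07 and 1.39 in the 2 comparisons with uninjured) and 5 (0.56 in FSP1+ over uninjured), Maff with a pseudocount of 5 (3.75 in αSMA+ over uninjured) and, with TPM in that comparison, Fos (-1.10), Jun (-1.49) and Junb (1.97). With minimums of 5 FPKM in either library, or of 1 FPKM in both, Batf3 could not be counted where it fell below them. No library could be left out, since each group has 1. No paired analysis was possible because each group has 1 library and no test was run. Precision is limited by the lack of replicates, by unknown read numbers and, for Batf3, by low levels.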
